A study of Mus musculus with 10 samples.

Results

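Vascular smooth muscle (VSM) cells and pericytes, together the mural cells of blood vessels, accounted for 613 of the 57982 cells with at least 200 genes in 8 libraries of mouse fetal pancreas. They were selected on measured values, counted as UMIs (unique molecular identifiers, each standing for 1 captured transcript). A mural cell had at least 3 UMIs of *Acta2*, at least 3 of *Tagln* and *Myl9* together, at least 1 of *Rgs5*, *Ndufa4l2*, *Cox4i2* or *Myh11*, and none of *Upk3b* or *Epcam*. The levels of these genes are therefore given as a description, with no test. Among them, *Acta2* (smooth muscle actin), *Tagln* (transgelin), *Myl9* (a myosin regulatory light chain) and *Myh11* (smooth muscle myosin heavy chain) belong to the contractile apparatus. *Rgs5*, *Ndufa4l2* and *Cox4i2* mark pericytes, *Upk3b* marks mesothelium and *Epcam* epithelium. The comparison class consisted of 14497 other mesenchymal cells, the remaining cells of the same libraries with at least 5 UMIs of *Col3a1* and *Col1a1* together.

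VSM cells wrap arteries and veins and contract through smooth muscle actin and myosin, whereas pericytes lie on capillaries inside the basement membrane that they share with the endothelium. Endothelial PDGF-B recruits both through the receptor PDGFRB, and Notch ligands on the neighbouring endothelium act on NOTCH3 in mural cells and induce the transcriptional repressors of the Hey family. In the fetal pancreas these cells form part of the mesenchyme that surrounds the branching epithelium.

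Single cells were captured by droplet from pancreata of Swiss Webster embryos of 3 stages, E12.5, E14.5 and E17.5 (E for embryonic day). The v1 kit gave 4 libraries of all live cells, 1 at E12.5, 2 at E14.5 (batches 1 and 2) and 1 at E17.5, those of E12.5 and E17.5 belonging to batch 2. The v2 kit gave 3 libraries, 1 at each stage, of live cells sorted as negative for CD140a, the protein of *Pdgfra*, a sort that depletes fibroblast-type mesenchyme, and the E17.5 suspension was run in 2 wells that were summed here. The eighth library, also of the v2 kit, came from E14.5 *Fev-Cre; ROSA26mTmG* embryos on a C57BL/6J background, in which Cre driven by *Fev* switches cells of the *Fev* lineage from membrane tdTomato to membrane GFP, and GFP+ and tdTomato+ cells were both loaded. Each library pooled pancreata of 1 litter, or of 2 litters in v1 E12.5, so the spread between libraries includes no spread between single embryos. Kit and sequencer changed together, the CD140a sort was used with the v2 kit alone, the sorted v2 libraries were each made on another day, and tissue was dissociated for 10 min at E12.5, 15 min at E14.5 and 30 min at E17.5, so that dissociation time, and within the v2 kit the day, cannot be told apart from stage. The libraries held 15671934 to 196793242 UMIs. Mural cells had library medians of 3675 to 10826 UMIs per cell and other mesenchymal cells 2574 to 11164.

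The defining markers were present in every library. The summed level of *Acta2*, *Tagln*, *Myl9*, *Rgs5* and *Ndufa4l2*, in CPM (UMIs of the gene per 1000000 UMIs of the class), was 2879 to 14590 in mural cells and 171 to 831 in other mesenchymal cells. Markers of other cell types that the selection could have admitted varied. The 8 endothelial markers summed to 37.9 to 246 CPM in mural cells against 47.5 to 134 in other mesenchymal cells, with *Esam*, an endothelial cell adhesion molecule, at a median of 66.8 CPM against 7.27 and higher in mural cells of every library. *Pecam1*, another, was at 0 in 5 libraries and at most at 8.68 CPM. In v2 E12.5, *Cdh5* (8.68 against 1.59 CPM), *Cldn5* (23.2 against 4.32) and *Emcn* (26.1 against 2.67) were also above the other mesenchyme. The same 3 genes were above it in v2 E17.5 (2.44 against 0.845, 3.26 against 1.52 and 8.14 against 1.31 CPM), where *Kdr* was below it (4.48 against 18.9). The part of endothelial RNA in the results was not tested. The neural crest factors *Sox10* and *Foxd3* were at 0 in every library, and the 6 immune markers summed to at most 117 CPM. The 8 epithelial markers summed to 151 to 597 CPM against 154 to 2740, the 7 mesothelial markers to 21.7 to 268 against 158 to 3696, and the 7 cardiac and skeletal muscle markers to 7.96 to 149 against 8.92 to 39.8. The 6 erythroid markers, the haemoglobin genes included, ranged in sum from 0 to 49160 CPM in mural cells and from 7.21 to 56480 CPM in other mesenchymal cells. Visceral smooth muscle markers (*Actg2*, *Des*, *Kit*, *Ano1*, *Etv1*, *Nkx2-3* and *Hand1*) summed to 422 to 4067 CPM against 83.3 to 411, with the highest sum in the v1 E17.5 library, where *Actg2* alone was at 3468 CPM. The part of visceral muscle cells in the results was not tested. Of the mural cells, 181 carried UMIs of at least 2 different endothelial, immune, epithelial or glial markers. The library median was 29.5%, against 34.1% of other mesenchymal cells, and these medians hide a difference between libraries. In the CD140a-negative libraries the shares were 36.47% against 63.86% (E12.5), 45.95% against 69.26% (E14.5) and 36.45% against 89.91% (E17.5). Most comparison cells there thus carried such markers. The share was higher in mural cells in the Fev-Cre library alone. Pairs of libraries shared 10 to 155 cell barcodes, and 1 shared barcode belonged to a mural cell.

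In the v1 libraries, mural cells made up 1.08% of E12.5 cells, 0.870% (batch 1) and 1.86% (batch 2) of E14.5 cells, and 2.04% of E17.5 cells. The corresponding shares in the CD140a-negative v2 libraries were 0.645%, 0.407% and 1.68%, and 0.810% in the Fev-Cre library. In each kit the E17.5 share was the highest, with exact Clopper-Pearson 95% intervals of 1.5 to 2.7% (v1) and 1.46 to 1.91% (v2). Those for v1 E14.5 batch 2 (1.49 to 2.30%) and v1 E17.5 overlapped. The 200-gene filter left out 2326 of 4635 (v1) and 4663 of 17433 (v2) barcodes at E17.5. At E12.5 it left out 13 of 4631 and 15 of 13197, so the shares depend on a filter whose effect differed by stage. After thinning every cell to 2000 UMIs, which left out 1454 shallower cells, 1.40% and 1.05% of E17.5 cells met the thresholds, against 0.152 to 0.663% in the 6 younger libraries. As a share of mural and comparison cells together, mural cells made up 1.94% to 3.97% in the v1 libraries and 2.29% in the Fev-Cre library. In the 3 libraries whose sort depleted the *Pdgfra*-expressing mesenchyme, they made up 4.93% to 10.1%. Most comparison cells of those 3 libraries carried *Upk3b* or *Epcam*, and 511 of 1638 (E12.5), 95 of 501 (E14.5) and 186 of 1912 (E17.5) lacked both. Intervals on shares and levels cover counting error only.

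**Figure D1:**
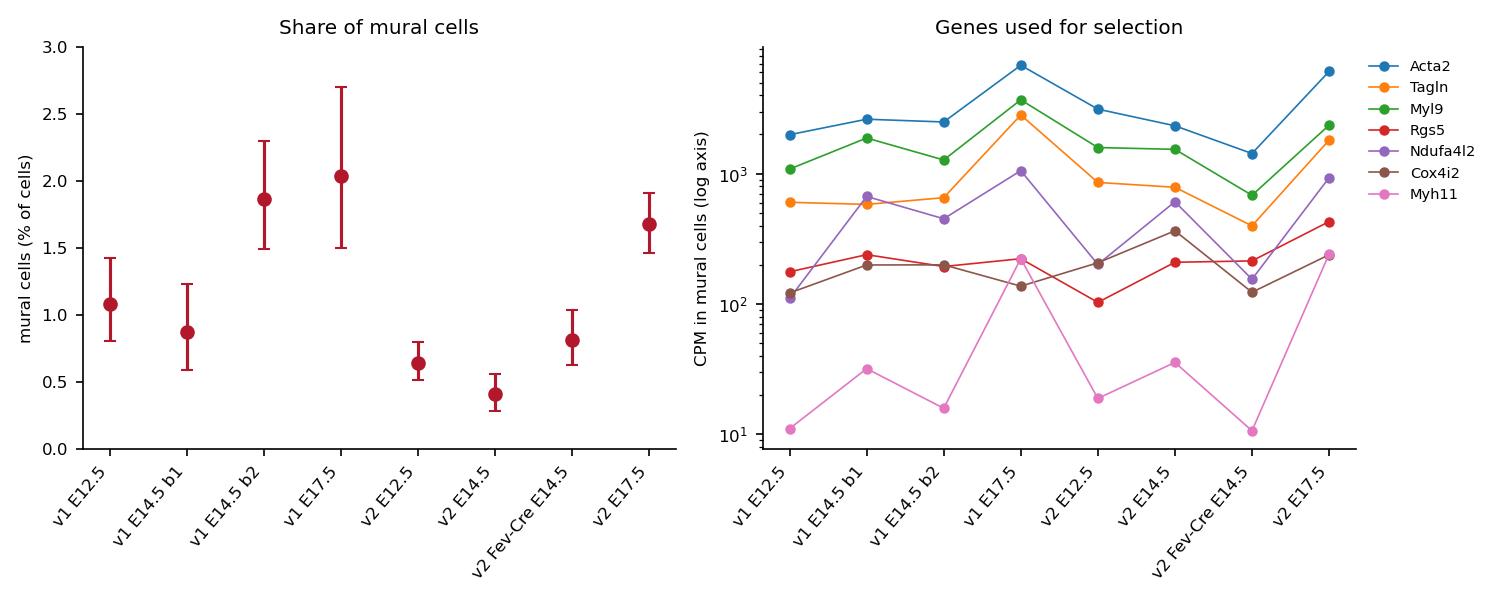
Share of cells that met the thresholds in each library (percent, with exact 95% binomial intervals) and levels of the genes used for selection in mural cells (CPM, log axis, 1 point per library). Shares ran from 0.407% in the v2 E14.5 library to 2.04% in the v1 E17.5 library, and *Myh11* was highest in the 2 E17.5 libraries.

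Among the selecting genes, the contractile ones were highest at E17.5. *Acta2* was at 1993 and 3132 CPM at E12.5 (v1 and v2), at 1429 to 2620 at E14.5 and at 6800 and 6097 at E17.5. *Myh11* was at 11.0 and 18.8 CPM at E12.5, at 10.6 to 35.5 at E14.5 and at 222 and 241 at E17.5. *Rgs5*, a regulator of G protein signalling, covered a smaller range, from 103 CPM in v2 E12.5 to 429 CPM in v2 E17.5, with a median of 211. In other mesenchymal cells *Rgs5* was at 14.8 to 135 CPM (median 67.1), so the ranges of the classes overlapped. In v1 E12.5, E14.5 batches 1 and 2 and E17.5 it was at 99.7, 135, 87.6 and 63.6 CPM there, against 177, 239, 194 and 223 in mural cells. *Ndufa4l2*, a respiratory chain subunit paralog, was at 110 and 201 CPM in mural cells at E12.5, 155 to 669 at E14.5 and 1055 and 931 at E17.5. In other mesenchymal cells it was at 9.27 to 313 CPM. In mural cells *Cox4i2*, an isoform of a cytochrome c oxidase subunit, was at 121 to 364 CPM with no order by stage. Most mural cells, 490, entered through a pericyte gene without a *Myh11* UMI, 117 carried both, and 6 carried *Myh11* alone. The share with a *Myh11* UMI was 4.0% to 16.2% in 7 libraries and 40.7% in v2 E17.5. After thinning to 2000 UMIs it was 0.00 to 21.5% of mural cells by library, against 0.00 to 0.133% of epithelial cells.

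Values of cells on either side of the boundary of the selection are given as a description, with no test. There were 50 mural cells with exactly 3 *Acta2* UMIs and 66 cells with 2 that met every other criterion. The just-excluded cells had 47.4 CPM of *Heyl* and 151 of *Pdgfrb*, the just-included ones 39.1 and 183, and all mural cells 114 and 158, whereas other mesenchymal cells had 8.08 and 43.2. *Cnn1*, the contractile protein calponin, was low on both sides, with 2.15 CPM just outside and 0.00 just inside the boundary against 164 over all mural cells. A further 144 cells met the actin and myosin thresholds without a *Myh11* or pericyte-gene UMI, and they had 32.6 CPM of *Heyl* and 118 of *Actg2*.

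To ask what distinguished mural cells from the surrounding mesenchyme, UMIs were summed per library and class and compared within libraries with the quasi-likelihood test of edgeR, p-values being adjusted by the Benjamini-Hochberg method. Genes were called at an adjusted p under 0.05 and at least a 2-fold difference, and fold changes are given on the log2 scale as mural over other mesenchymal cells ± SE over 8 libraries. Of 10653 genes tested, 331 were higher in mural cells (3.11%) and 536 were lower (5.03%). Among called genes that moved alike in every library and had a median of at least 50 CPM in mural cells, the 8 with the largest increase were *Actg2*, *Map3k7cl*, *Ccl11*, *Itga1*, *Nrarp*, *Heyl*, *Il13ra1* and *Sept4*. The selection itself used 4 contractile genes and the pericyte genes *Rgs5*, *Ndufa4l2* and *Cox4i2*. The direction of genes that vary with any of these is therefore not independent of the choice of cells.

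Notch pathway genes were among those most different from the other mesenchyme. No Notch gene was used for selection, but genes that vary with the selecting genes are not independent of it. Of 20 genes, 14 passed the filter on low counts, 8 of which were higher and 0 lower by edgeR (1 lower at an unadjusted p under 0.05, 0 by DESeq2), with a median log2 fold change of 1.61 against -0.04 over all genes tested. *Heyl*, a Notch-induced repressor (chr4:123233556-123249875, GRCm38, plus strand), was at 87.5 to 223 CPM in mural cells (median 116) and at 4.86 to 18.3 CPM in other mesenchymal cells (median 9.74). The groups did not overlap, and the difference was 3.90 ± 0.21 (adjusted p = 1.9e-08), within 3.11 to 4.28 in all 22 alternative analyses. The alternative asking for at least 25 cells per class left every library in and so repeated the main run. *Notch3*, the mural receptor (chr17:32120820-32166852, minus strand), was at 31.1 to 207 CPM against 1.18 to 25.7, again without overlap (2.67 ± 0.29, adjusted p = 1.5e-05). *Nrarp*, a Notch-induced feedback inhibitor, was at 25.8 to 182 CPM against 2.12 to 12.1 (3.91 ± 0.29, adjusted p = 3.7e-07). *Hey2* was at 12.1 to 69.5 against 1.41 to 7.38 CPM (3.19 ± 0.38), and the ligand *Jag1* was at 11.4 to 127 against 5.02 to 22.4 CPM, higher in mural cells of each library (2.25 ± 0.34). *Hey1*, *Notch1* and *Nrip2* were also called, the last by a median of 16.1 against 4.5 CPM and in 7 of 8 libraries. In the v1 libraries alone the calls of *Jag1* (1.1), *Hey1* (1.54), *Notch1* (1.02) and *Nrip2* (1.11) were lost, and that of *Notch1* also with comparison cells lacking *Upk3b* and *Epcam* (0.93). UMIs of *Heyl* were seen in 13.1 to 32.3% of mural cells after thinning to 2000 UMIs, against 0.798 to 3.54% of other mesenchymal cells and a median of 0.512% of epithelial cells.

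**Figure D2:**
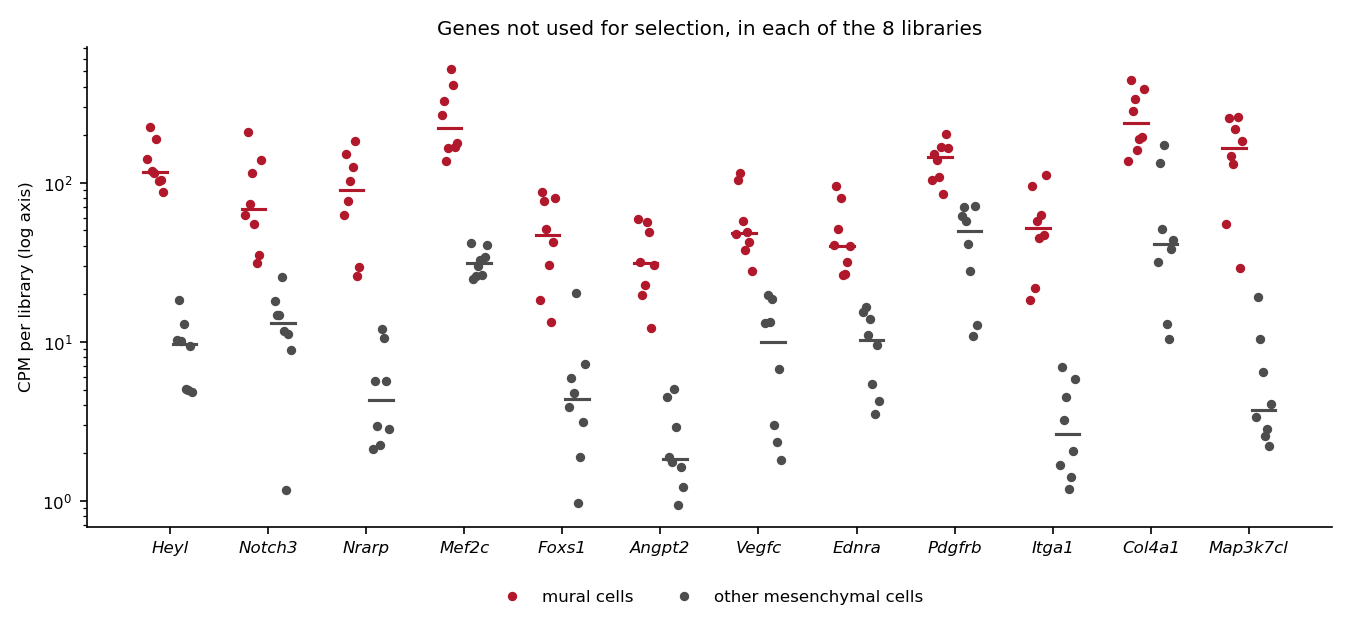
Levels of named genes in mural cells and in other mesenchymal cells (CPM, log axis, 1 point per library and class, lines at medians). For *Heyl*, *Notch3*, *Mef2c* and *Pdgfrb* every mural value lay above every value of the other mesenchyme.

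Contractile genes gave the highest number of calls among the 13 lists: of 25 tested, 16 were higher and 1 lower, with a median of 1.38. *Actg2*, smooth muscle gamma actin (chr6:83512905-83536265, minus strand), was at 102 to 3468 CPM (median 287) against 0.706 to 78.7 (median 6.22), a difference of 5.83 ± 0.43 (adjusted p = 4e-07). Its transcript is nearly identical to *Acta2* in the coding part, and how reads shared by the 2 genes were counted was not tested. *Lmod1*, a leiomodin that nucleates actin filaments, was at 18.4 to 143 against 0.558 to 8.92 CPM without overlap (4.18 ± 0.31). *Cnn1* was at 10.6 to 294 against 0.471 to 23.6 CPM (4.53 ± 0.40), *Mylk*, the kinase of myosin light chains, at 14.7 to 947 against 3.92 to 56.2 CPM (3.29 ± 0.40), and *Tpm2*, a tropomyosin, at 311 to 1723 against 64.5 to 430 CPM (2.00 ± 0.17). For these 3 genes the ranges overlapped, but mural cells were higher within each library. *Des*, desmin, had a median of 204 against 179 CPM and did not pass the test (0.59 ± 0.22, adjusted p = 0.081). *Smtnl2* was lower (-1.81 ± 0.28), a call lost with comparison cells lacking *Upk3b* and *Epcam* (-0.65), in the v1 libraries alone (-1.15) and without cells carrying markers of another type (-0.94). Its median was 10.1 against 36.9 CPM, and it was found in a median of 16.2% of thinned epithelial cells.

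Serum response factor drives smooth muscle genes through the CArG box, and Notch acts through RBPJ at the letters GTGGGAA, so the 250 bases before the start of genes were searched for both, on either strand. A CArG box was found in 11 of 318 RefSeq promoters (GRCm38.p6) of genes called higher (3.46%), 7 of 526 of genes called lower (1.33%) and 482 of all 32851 promoters (1.47%), where 228 of the 331 higher genes had an entry. GTGGGAA was found in 24 of the 318 (7.55%), 37 of the 526 (7.03%) and 1779 of all promoters (5.42%). These matches describe letters in a window and are not binding sites. The stretches shown are those of *Myl9*, used for selection, of *Cnn2* (calponin 2, higher in mural cells by 1.89 ± 0.17) and *Vcl* (vinculin, which anchors actin to adhesions, higher by 1.29 ± 0.21), with the CArG box in capitals, and of *Hey2*, with the reverse complement of GTGGGAA in capitals. They lie at chr2:156775214-156775463 (plus strand, box 161 to 152 bases before the start), chr10:79988350-79988599 (plus, 56 to 47 bases), chr14:20929148-20929397 (plus, 227 to 218 bases) and chr10:30842784-30843033 (minus, 207 to 201 bases).
Myl9: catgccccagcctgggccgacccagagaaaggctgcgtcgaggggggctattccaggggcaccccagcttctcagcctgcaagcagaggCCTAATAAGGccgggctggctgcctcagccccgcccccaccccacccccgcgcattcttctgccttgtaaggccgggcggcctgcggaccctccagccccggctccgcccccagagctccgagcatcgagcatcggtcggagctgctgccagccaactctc
Cnn2: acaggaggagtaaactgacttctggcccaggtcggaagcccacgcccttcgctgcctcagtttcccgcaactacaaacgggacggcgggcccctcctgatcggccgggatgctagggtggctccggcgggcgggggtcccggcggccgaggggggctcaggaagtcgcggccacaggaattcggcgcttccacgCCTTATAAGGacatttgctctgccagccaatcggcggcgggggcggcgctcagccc
Vcl: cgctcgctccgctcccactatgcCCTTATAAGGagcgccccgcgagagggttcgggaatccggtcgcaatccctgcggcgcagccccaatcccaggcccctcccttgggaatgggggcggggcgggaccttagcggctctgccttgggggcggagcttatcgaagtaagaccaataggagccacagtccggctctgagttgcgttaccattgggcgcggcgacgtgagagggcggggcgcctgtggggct
Hey2: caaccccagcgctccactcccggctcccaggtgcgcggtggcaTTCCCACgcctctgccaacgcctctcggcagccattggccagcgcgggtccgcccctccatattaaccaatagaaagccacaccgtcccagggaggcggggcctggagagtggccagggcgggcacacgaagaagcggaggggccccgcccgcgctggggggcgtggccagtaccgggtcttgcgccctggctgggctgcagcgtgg

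Pericyte genes that the selection did not use were mostly higher as well. Of the mural cells, 490 entered through a pericyte gene without *Myh11* and 117 carried both. The direction of genes that vary with those pericyte genes is therefore not independent of the selection. Of 18 tested, 13 were higher and 1 was lower, with a median of 1.63. *Pdgfrb*, the PDGF-B receptor, was at 84.4 to 202 CPM (median 145) against 10.8 to 71.1 CPM (median 49.4), without overlap (1.91 ± 0.28, adjusted p = 0.00026). Its call was lost when comparison cells with *Upk3b* or *Epcam* were left out (0.98). *Mcam*, an adhesion molecule, was at 22.2 to 87.6 against 5.17 to 14.7 CPM (2.67 ± 0.19), and *Cspg4*, the proteoglycan NG2, at 13.3 to 87.6 against 1.65 to 13.0 CPM (2.36 ± 0.29). Both were separated from the other mesenchyme in every library. The KATP channel genes *Kcnj8* and *Abcc9* differed less, at medians of 266 against 147 CPM (1.09 ± 0.09) and of 42.8 against 23.5 CPM (1.18 ± 0.27). Their calls were lost in several alternatives, *Kcnj8* keeping its call in 14 and *Abcc9* in 15 of 22.

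Ligands and receptors of vessel signalling followed. Of 31 genes of the PDGF, angiopoietin, TGF-beta and VEGF pathways, 11 were higher and 1 was lower (median 0.51). *Angpt2* and *Angpt1*, ligands of the endothelial receptor TIE2, were at 12.1 to 58.8 against 0.941 to 5.02 CPM (3.87 ± 0.32) and at 15.1 to 31.1 against 1.40 to 8.72 CPM (2.74 ± 0.28). *Vegfc*, a lymphangiogenic ligand, was at 27.7 to 115 against 1.82 to 19.8 CPM (2.91 ± 0.28). No library of mural cells fell to the level of other mesenchymal cells for these 3 ligands. Of 23 vasoactive receptors, channels and second messenger genes, 10 were higher and 0 lower by edgeR (median 0.99; 1 lower at an unadjusted p under 0.05, 0 by DESeq2). They included the endothelin receptor *Ednra*, at 26.1 to 95.6 against 3.53 to 16.6 CPM (2.32 ± 0.21), the nitric oxide receptor subunit *Gucy1a3*, at 140 to 263 against 24.8 to 67.8 CPM (1.87 ± 0.12), and the phosphodiesterase *Pde3a*, at 28.5 to 64.3 against 7.06 to 23.5 CPM (1.73 ± 0.18).

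Of 40 transcription factors, 6 were higher and 4 lower (median 0.19). *Mef2c*, a partner of smooth muscle gene activation (chr13:83504034-83667080, plus strand), was at 136 to 518 CPM (median 222) against 24.6 to 41.8 CPM (median 31.3). The groups were apart and the difference was 2.90 ± 0.23 (adjusted p = 5.6e-07). *Foxs1* was at 13.3 to 87.6 against 0.966 to 20.4 CPM (3.40 ± 0.34), *Ebf1* at 202 to 800 against 19.0 to 237 CPM (2.59 ± 0.38) and *Foxc2* at 4.44 to 24.3 against 0.254 to 1.90 CPM (3.67 ± 0.47). The difference of *Ebf1* was 1.47 with comparison cells lacking *Upk3b* and *Epcam* and 1.46 in the v1 libraries alone, where *Foxc2* was not called (2.03). *Myocd*, the coactivator of smooth muscle genes, was too low to be tested. *Wt1*, a mesothelial factor, was lower, at 1.45 to 71.2 against 92.0 to 190 CPM (-3.11 ± 0.40). Cells with the mesothelial gene *Upk3b* were removed from the mural class and kept in the comparison class. The direction of *Wt1* is therefore not independent of the choice of cells.

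In the basement membrane list, 5 of 24 genes were higher and 4 lower. *Itga1*, the collagen-binding integrin alpha 1 subunit, was at 18.4 to 112 against 1.19 to 6.94 CPM (4.13 ± 0.28), and *Col4a1*, a type IV collagen chain, at 136 to 438 against 10.4 to 173 CPM (2.51 ± 0.27). Of 24 interstitial matrix genes, 8 were higher and 1 lower. Of 16 elastic fibre genes, 1 was higher, *Eln* (elastin), with 2 lower. *Map3k7cl*, a gene of little known role, was at 28.8 to 258 against 2.20 to 19.1 CPM, without overlap (4.76 ± 0.33). The chemokine *Ccl11*, an eosinophil attractant, was at 30.4 to 358 against 0.706 to 48.8 CPM (4.45 ± 0.34). *Stmn2*, a microtubule regulator, belongs to a list of mesenchymal subtype genes that the study drew from these libraries, so its direction (2.17 ± 0.47) is not independent evidence. That list had 6 of 18 genes higher and 4 lower. Of 21 respiratory chain and hypoxia genes outside those used for selection, edgeR called 0 higher and 3 lower, with 3 higher at an unadjusted p under 0.05 and 0 called higher by DESeq2. With comparison cells lacking *Upk3b* and *Epcam*, 1 of 17 was lower.

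**Figure D3:**
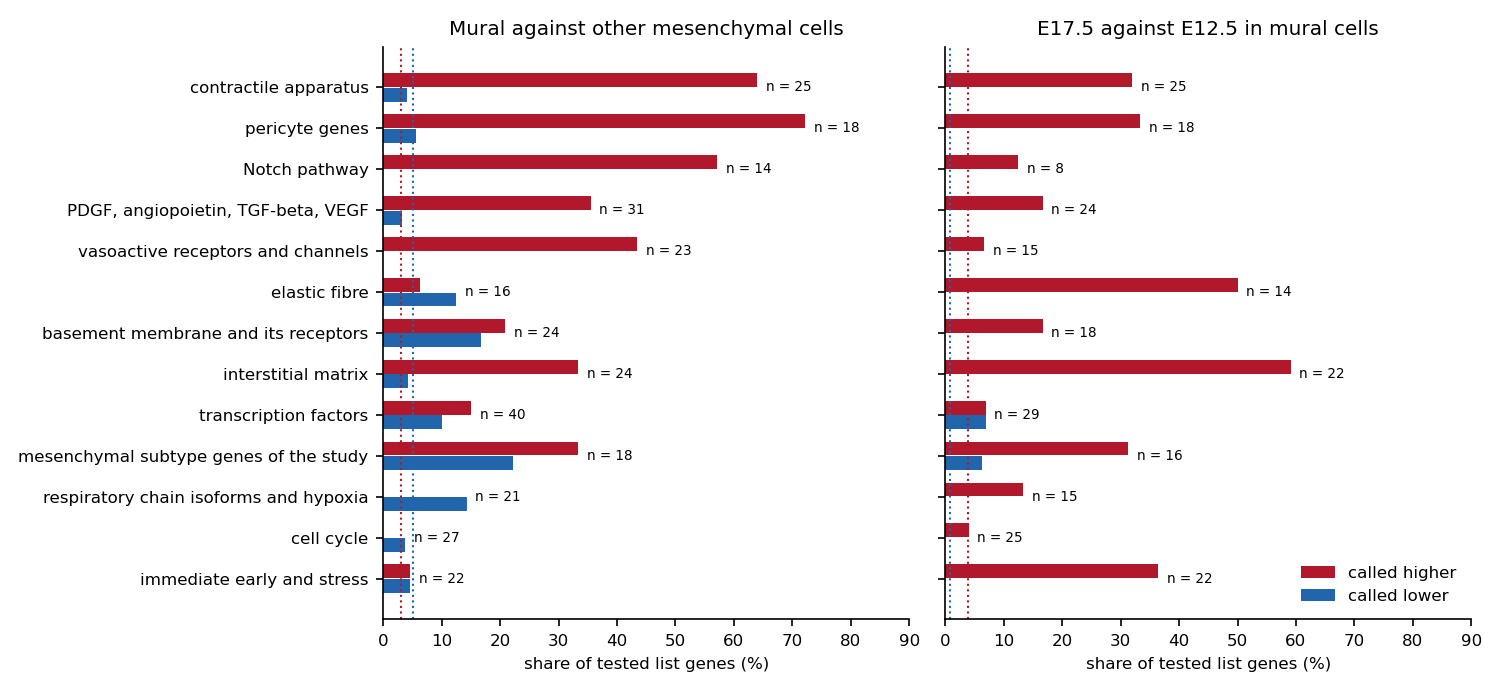
Share of the tested genes of each list called higher or lower (percent, bars, with the number tested as n) for mural against other mesenchymal cells and for E17.5 against E12.5 in mural cells, with dotted lines at the shares over all genes. Contractile, pericyte and Notch genes were called most often against other mesenchymal cells (16 of 25, 13 of 18 and 8 of 14), and interstitial matrix genes most often by stage (13 of 22).

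A larger share of mural cells than of other mesenchymal cells carried transcripts of the G2 and M phases of the cell cycle. After thinning to 2000 UMIs, the share of cells with UMIs of at least 2 of 10 G2/M genes was 18.6 to 45.2% (median 37.4%) in mural cells and 11.1 to 35.5% (median 24.7%) in other mesenchymal cells. The difference was 9.04 ± 5.49 percentage points (SD, n = 8 libraries), higher in 7 of 8 libraries (exact two-sided sign-flip permutation test, p = 0.0156, the smallest possible being 0.00781). This test was not planned. Mural cells were chosen by UMI thresholds before thinning, which favours cells with more UMIs. Their median depth was higher in the v1 and Fev-Cre libraries (3926 against 2574 UMIs in v1 E14.5 batch 1, 9885 against 6617 in Fev-Cre) and lower in the CD140a-negative ones. The part of depth at selection in this difference was not tested. Of 27 cell cycle genes tested singly, edgeR called 0 higher (15 at an unadjusted p under 0.05, 0 by DESeq2) and *Cdkn1a*, an inhibitor of cell cycle kinases, lower (-1.91), with a list median of 0.31. The *Cdkn1a* call was lost in the v1 libraries alone (-0.50) and with comparison cells lacking *Upk3b* and *Epcam* (-0.57).

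The lower genes included *Krt19* and *Aldh1a2*. *Krt19*, a keratin, was at 0.00 to 13.3 CPM against 5.93 to 1438 CPM, and *Aldh1a2*, the retinoic acid synthesising enzyme of mesothelium, at 0.00 to 9.88 against 13.3 to 285 CPM. The selection excluded cells with *Upk3b* or *Epcam*, but the comparison class did not, and in the CD140a-negative libraries 511 of 1638 (E12.5), 95 of 501 (E14.5) and 186 of 1912 (E17.5) comparison cells lacked both. With comparison cells restricted to those without *Upk3b* and *Epcam*, 174 of 8284 genes tested were higher (2.1%) and 142 lower (1.71%). Of the 174, 148 were among the 331 higher with all comparison cells, and of the 142, 91 were among the 536 lower. The lists then had 14 of 24 contractile, 7 of 16 pericyte and 5 of 11 Notch genes higher, with 7 of 28 genes of the PDGF, angiopoietin, TGF-beta and VEGF pathways, 4 of 15 vasoactive genes, 4 of 20 basement membrane genes, 3 of 22 interstitial matrix genes and 3 of 34 transcription factors. Of these lists, genes were lower in the pathway list (2), the basement membrane list (1), the interstitial matrix list (1) and among transcription factors (2). The median log2 fold changes were then 1.38 for contractile, 0.88 for pericyte, 0.93 for Notch and 0.47 for vasoactive genes. Under that restriction the differences were 3.11 for *Heyl*, 2.12 for *Notch3*, 2.30 for *Mef2c* and 6.07 for *Actg2*, all still called, whereas *Pdgfrb* (0.98), *Notch1* (0.93), *Kcnj8* (0.79), *Abcc9* (0.47), *Postn* (0.43) and *S1pr3* (0.07) lost their calls. Genes that kept their calls with a fold over 1.5 times smaller included *Map3k7cl* (4.15), *Ccl11* (3.61), *Itga1* (3.26), *Sept4* (2.31), *Foxs1* (2.57) and *Hey2* (2.46). Others were *Vegfc* (2.23), *Angpt1* (1.98), *Ednra* (1.71), *Col4a1* (1.65), *Jag1* (1.45), *Pde3a* (1.1), *Heyl* and *Mef2c*, and this list is not complete. Within kits, the v1 libraries alone gave 172 higher and 154 lower genes and the v2 libraries alone 378 and 747, and without the block on library, 176 and 144 were called.

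To compare mural cells between stages, E17.5 was set against E12.5 by edgeR with stage and kit as terms. The fit used 2 libraries at each of those stages and 4 at E14.5. Cells were selected anew in each library, from different pools of embryos. Of 6249 genes tested, 245 were higher at E17.5 (3.92%) and 55 were lower (0.88%). Of 22 interstitial matrix genes 13 rose (median 2.35 against -0.02 over all genes), of 14 elastic fibre genes 7 rose (median 1.58) and of 18 basement membrane genes 3 rose, and 0 of the first 2 lists fell by edgeR, at an unadjusted p under 0.05 or by DESeq2. *Eln* (chr5:134702593-134747323, minus strand) was at 36.8 (v1) and 24.6 CPM (v2) at E12.5, at 143, 243, 178 and 59.2 CPM in E14.5 batch 1, batch 2, v2 and Fev-Cre, and at 1700 and 1669 CPM at E17.5. Every E17.5 value exceeded every earlier one, and the change was 5.95 ± 0.58 (adjusted p = 0.00047), against 4.30 in other mesenchymal cells. The difference between these 2 changes did not pass the test (1.64, adjusted p = 0.061).

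*Lox*, the enzyme that crosslinks elastin and collagen, went from 11.0 and 0.00 CPM to 165 and 120 (5.51 ± 0.77). *Col6a1*, a type VI collagen chain, went from 11.0 and 10.1 to 570 and 258 CPM (5.17 ± 0.48). The E12.5 values of *Lox* and *Col6a1* rest on few UMIs, so the sizes of their folds are uncertain. *Dcn*, decorin, a small proteoglycan of fibroblasts, went from 254 and 23.2 to 6263 and 1871 CPM (5.40 ± 0.68). The changes in other mesenchymal cells were 5.05 for *Lox*, 4.13 for *Col6a1* and 4.91 for *Dcn*, and a difference between the classes was not called for any of the 3. The fibroblast marker sum reached 12970 CPM in mural cells of v1 E17.5 against 13540 in its other mesenchymal cells, and the part of such cells or their RNA in these values was not tested.

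Of 25 contractile genes, 8 rose from E12.5 to E17.5 (median 1.60) and 0 fell by edgeR, at an unadjusted p under 0.05 or by DESeq2. *Mylk* went from 14.7 (v1) and 98.4 CPM (v2) through 59.2 to 96.8 at E14.5 to 947 and 749 CPM (3.91 ± 0.55, adjusted p = 0.0024). *Cnn1* went from 29.4 and 52.1 through 10.6 to 22.2 to 274 and 294 CPM (2.85 ± 0.36, adjusted p = 0.0015), and *Actg2* from 169 and 504 through 102 to 303 to 3468 and 1651 CPM (2.92 ± 0.61, adjusted p = 0.018). In each of the 3, no E14.5 value exceeded the higher E12.5 value, and both E17.5 libraries lay above all others. The share of mural cells with a *Myh11* UMI was 4.0% (v1) and 11.8% (v2) at E12.5 and 14.9% and 40.7% at E17.5. In v2 E17.5, mural cells without a *Myh11* UMI had *Cnn1* at 19.5, *Actg2* at 459 and *Mylk* at 150 CPM. The part of this mix of cells in the rises was not tested. Markers of other muscle moved with stage in mural cells, *Tnnt2* from 7.36 and 2.89 to 39.9 and 100.5 CPM, *Actc1* from 7.36 and 13.0 to 79.9 and 47.6 CPM and *Des* from 209.6 and 169 to 376.5 and 450.2 CPM, while *Tnni1* went from 55.2 and 21.7 to 0.00 and 0.407 CPM. The cardiac myosins *Myh6* and *Myh7* were at most at 1.98 and 0.407 CPM in any library. The part of such cells in these values was not tested. *Aoc3*, an amine oxidase of smooth muscle, had 0 UMIs at E12.5 and 143 and 80.2 CPM at E17.5, at least 27.1-fold higher against a floor of 3 UMIs over the E12.5 libraries.

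**Figure D4:**
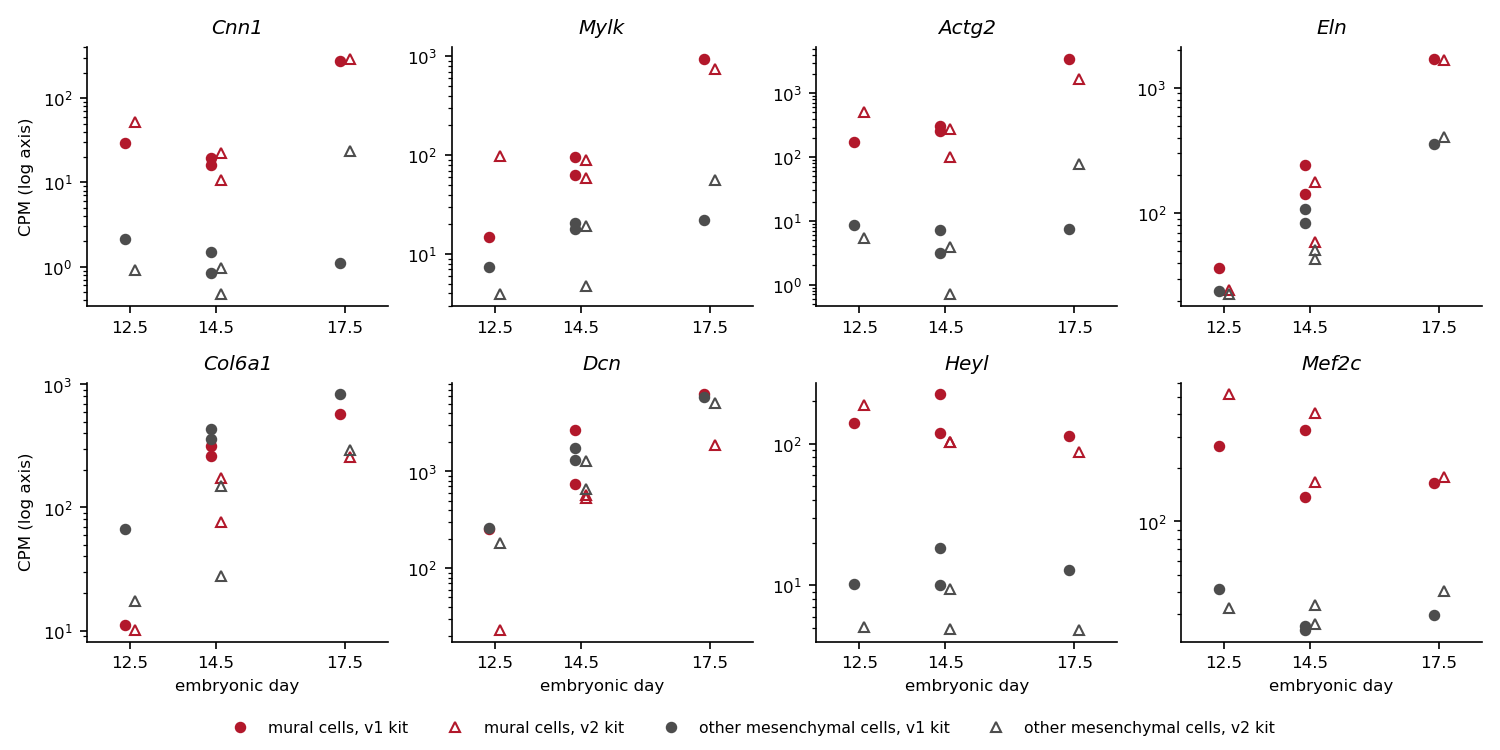
Levels of 8 genes by embryonic day (CPM, log axis, 1 point per library, red for mural and grey for other mesenchymal cells, filled circles for the v1 and open triangles for the v2 kit). *Eln* and *Mylk* were highest in both E17.5 libraries, whereas *Heyl* and *Mef2c* had no called change.

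Of 18 pericyte genes, 6 rose (median 1.19). *Higd1b*, a mitochondrial protein gene used as a pericyte marker, had 0 UMIs at E12.5, 4.55 to 17.8 CPM at E14.5, and 74.2 and 132 CPM at E17.5, at least 41.2-fold higher against that floor. *Postn*, periostin, went from 66.2 and 59.3 to 719 and 492 CPM (3.32 ± 0.37). *Pdgfrb* was at 103 and 166 CPM at E12.5 and 108 and 164 at E17.5 (0.17 ± 0.38, adjusted p = 0.88). Nor was a stage change called for *Heyl* (-0.64 ± 0.36, adjusted p = 0.39), *Notch3* (1.36 ± 0.55, adjusted p = 0.21) or *Mef2c* (-1.05 ± 0.46, adjusted p = 0.26). These changes did not exceed the spread between libraries by this test, which had 2 libraries at each end.

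Among the genes that fell were *Nefm*, *Hmga2*, *Barx1* and *Isl1*. *Nefm*, a neurofilament subunit, went from 136 and 181 CPM to 0.00 and 2.44 (-5.94 ± 0.64), and *Hmga2*, a chromatin factor of early embryonic cells, from 357 and 237 to 0.00 and 7.33 (-5.38 ± 0.74). *Barx1*, a foregut mesenchyme homeobox gene, went from 176 and 97.0 to 45.6 and 13.8 CPM (-2.36 ± 0.34), and *Isl1*, another homeobox gene, from 188 and 146 to 74.2 and 26.1 CPM (-1.96 ± 0.42). *Nefm* and *Hmga2* also fell in other mesenchymal cells (-3.87 and -6.73).

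Of 22 immediate early and stress genes, 8 rose with stage, among them *Fos*, from 91.9 and 200 to 2356 and 495 CPM (3.0 ± 0.64). *Fos* was already at 645 to 1597 CPM at E14.5, and the change in other mesenchymal cells was 3.53. Dissociation lasted longer at the later stages, and the part of handling in these values cannot be told apart from stage. *Ins1* and *Ins2*, the insulin genes of beta cells, were first and sixth by fold among the genes that rose alike in both kits and averaged at least 50 CPM at E17.5, and rose in other mesenchymal cells as well, *Ins2* to 5451 CPM there against 557 CPM in mural cells of v2 E17.5. They were seen in a median of 5.01% (*Ins1*) and 15.9% (*Ins2*) of epithelial cells after thinning, and the part of free RNA was not tested.

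The stage counts rested on few libraries. The v1 libraries alone gave 157 higher and 27 lower genes and the v2 libraries alone 148 and 40. Without v1 E12.5, v2 E12.5, v1 E17.5 or v2 E17.5, 60, 31, 149 and 45 genes were higher, and of the 70 genes named for stage 41, 48, 22 and 44 lost the call. *Eln*, *Col6a1*, *Mylk* and *Postn* kept it in every alternative run.

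A change with stage that differs between mural and other mesenchymal cells was tested as the stage-by-class term at an adjusted p under 0.05, which called 19 of 12833 genes upward in mural cells (0.148%) and 26 downward (0.203%). *Cdc42ep3*, an effector of the GTPase CDC42, was at 51.5 and 8.68 CPM at E12.5 and at 182 and 91.2 CPM at E17.5 in mural cells, while in other mesenchymal cells it was at 119 and 108 and then at 44.1 and 39.1 CPM. The directions were opposite and the difference was 3.72 ± 0.48 (adjusted p = 0.00054), called in 19 of 19 alternatives. Of these, the run asking for at least 25 cells per class repeated the main run, and 2 runs both left out the Fev-Cre library. *Stmn2* went the other way, from 496 and 604 to 194 and 61.9 CPM in mural cells and from 86.2 and 37.3 to 115 and 140 CPM in other mesenchymal cells (-3.81 ± 0.52, adjusted p = 0.00058, called in 19 of 19 alternatives). *Mfap4*, a microfibril protein, went from 460 and 98.4 to 2293 and 466 CPM in mural cells and from 668 and 207 to 1238 and 51.1 CPM in the others (2.67, adjusted p = 0.014), a call lost without v2 E12.5. *Gja4*, connexin 37, was at 0.00 and 4.34 CPM and then 45.6 and 27.3 CPM in mural cells, and at 3.80 and 2.79 and then 1.12 and 0.634 CPM in the others (5.30, adjusted p = 0.014). The mural values at E12.5 rest on 0 and 3 UMIs, and the call was lost in the v1 libraries alone, without v2 E12.5 or v2 E17.5, without cells carrying markers of another type and with comparison cells lacking *Upk3b* and *Epcam*. Of the 23 genes named for this term, 17 lost the call without v2 E12.5, 13 without cells carrying other markers, 11 with the restricted comparison cells and 10 by DESeq2. In the v1 libraries alone 13 lost the call and 4 reversed, and without v2 E17.5 10 lost it and 2 reversed. Of 17 Notch genes edgeR called 0 in this term (1 at an unadjusted p under 0.05, 0 by DESeq2). Without v1 E12.5, v1 E17.5, v2 E12.5 or v2 E17.5 the term called 80, 441, 20 and 89 genes in place of 45.

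In the v2 E17.5 library, which had the largest number of *Myh11*-positive mural cells, the 87 cells with a *Myh11* UMI were set beside the 127 without. Median depths were 11465 and 10440 UMIs. As both come from 1 suspension there is no test, and exact Poisson 95% intervals give counting error. Of 31 contractile genes with at least 10 UMIs, 27 were higher in *Myh11*-positive cells with intervals apart and none lower, with a median ratio of 2.80. Over all 9960 genes with at least 10 UMIs, 4.7% were higher and 5.15% lower with intervals apart, and the median ratio was 0.95. *Myh11* was used to split the cells, so genes that vary with it had to follow. *Cnn1* was at 647 CPM (600 to 697) against 19.5 (12.9 to 28.4), *Mylk* at 1520 (1447 to 1595) against 150 (130 to 172) and *Pdlim3*, a Z-disc protein gene, at 178 (154 to 205) against 23.1 (15.8 to 32.7). Pericyte genes split, 3 of 20 being higher and 7 lower, with a median ratio of 0.747, and of 14 Notch genes 3 were higher and none lower (median 1.09). *Kcnj8* was at 194 CPM (168 to 222) against 329 (300 to 361), *Abcc9* at 59.6 (45.9 to 76.1) against 111 (94.5 to 130) and *Ifitm1*, an interferon-induced membrane protein gene, at 304 (272 to 339) against 643 (601 to 687). Of the pericyte genes used for selection, *Rgs5* was at 363 (328 to 401) against 480 (444 to 517). *Ndufa4l2* was at 983 (925 to 1044) against 890 (840 to 941) and *Cox4i2* at 209 (182 to 238) against 262 (236 to 290), both with overlapping intervals. *Notch3* was at 165 (141 to 191) against 117 (99.8 to 137), and *Heyl* was at 74.5 (59.1 to 92.7) against 97.6 (81.9 to 116), with overlapping intervals. Both wells held this mixture, with 40.2% and 41.1% of 102 and 112 mural cells carrying *Myh11*.

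**Figure D5:**
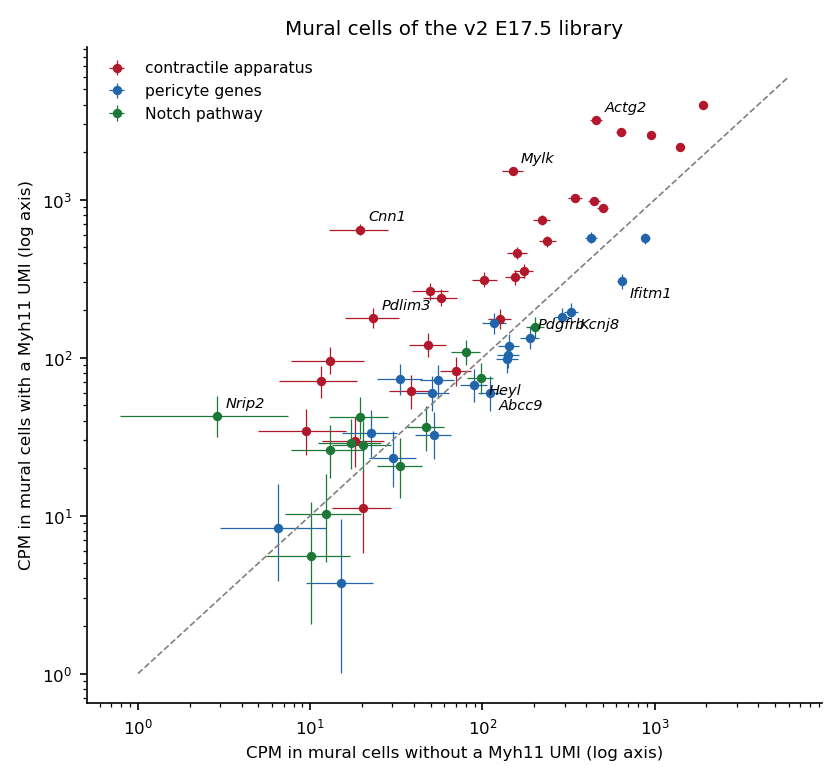
Levels (CPM, log axes) in v2 E17.5 mural cells with a *Myh11* UMI (vertical) against those without (horizontal), for contractile, pericyte and Notch genes with more than 3 UMIs in each group, with exact Poisson 95% intervals and the line of equality dashed. Most contractile genes lay above the line and *Kcnj8*, *Abcc9* and *Ifitm1* below it.

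In the Fev-Cre library, GFP UMIs were found in 12 of 64 mural cells (18.8%, exact Clopper-Pearson 95% interval 10.1 to 30.5%), each with 1 UMI, and in 18.9% of 2737 other mesenchymal cells, with up to 50 UMIs in a cell. Cells with at least 2 *Fev* UMIs carried GFP in 95.02%. Over all 7897 cells of the library, GFP was found in 46.6% and tdTomato in 9.08%. The part of free RNA in the GFP and tdTomato UMIs was not tested. The summed GFP level was 18.2 CPM in mural cells (exact Poisson 95% interval 9.40 to 31.8) and 96.9 CPM in other mesenchymal cells (92.9 to 101.1), and the 1762 of those cells without *Upk3b* and *Epcam*, which mural cells also lacked by selection, had 27.9 CPM (24.9 to 31.2, a restriction chosen after seeing the data). The mural interval lay below that of all other mesenchymal cells and overlapped that of the restricted cells. The tdTomato transcript was found in 6 of 64 mural cells (9.38%, interval 3.52 to 19.3%) at 9.10 CPM and in 10.3% of other mesenchymal cells at 13.5 CPM, with overlapping intervals. Median depths were 9885 and 6617 UMIs per cell, and with 1 library of this genotype there is no test.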

How the data were processed

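The authors aligned droplet reads to mm10 with Cell Ranger (1.1 for v1 and 2.1 for v2, per the submitters' processing notes) and deposited UMI counts per gene and cell. Barcodes with fewer than 200 genes were left out (8035 of 66017), no doublet caller was run, and the 2 wells of v2 E17.5 were summed. UMIs were summed per library and class and tested with edgeR 4.0.16 (TMM, filterByExpr, quasi-likelihood test, Benjamini-Hochberg adjustment) in R 4.3.3. The class test blocked on library, the stage test had stage and kit as terms, and DESeq2 1.42.0 was an alternative. The 11 genes used to choose either class were left out of calls. The edgeR step was tested on simulated counts.

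Mural and other mesenchymal cells of a library came from 1 suspension and were paired by it. Deviations from the class means over 10664 genes correlated at 0.322 to 0.631 within libraries (median 0.474) and at -0.489 to 0.334 between them (median -0.06), and each of the 8 libraries correlated best with itself. Between different libraries of 1 kit the correlations were -0.0116 to 0.334 (median 0.135).

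Named genes were the 8 with the largest change in each direction among called genes that moved alike in every library (class) or both kits (stage) and reached 50 CPM, plus the called genes, the 8 highest in mural cells and the pathway-defining genes of each list. Other genes named were used for selection or are markers of other cell types, and some named genes are not reported here. Cells, lists and rules were chosen with earlier results of these data known. Positions of genes were read from GENCODE M21 (GRCm38), which is not the annotation behind the counts. As each library pooled embryos, p-values measure the spread between pools.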

Additional observations from a re-analysis of the deposited data

Results flagged for a closer look

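In 107 sets of 8 library values, 6 library values lay apart from the other 7 by Dixon's test at the 95% level, a test that chance alone meets in about 1 of 20 sets. Each is a log2 ratio of mural to other mesenchymal cells with 10 CPM added to both. Smooth muscle actin *Actg2* was at 7.63 in v1 E17.5 against 3.005 to 5.07 in the others, and tropomyosin *Tpm1* at 2.64 in the same library against 0.79 to 1.56. In v2 E17.5, the neuropilin *Nrp1* was at 2.50 against 0.31 to 1.22, the matrix gene *Thbs2* at 2.95 against 0.10 to 1.28, and the fibulin-type gene *Efemp1* at -4.88 against -1.46 to -0.51. In v1 E12.5, the small proteoglycan *Ogn* was at 0.58 against -1.35 to -0.86. In v2 E17.5, 186 of 1912 comparison cells lacked *Upk3b* and *Epcam*, and the part of the others in these values was not tested.

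A stage change (E17.5 against E12.5) that differed between mural and other mesenchymal cells by edgeR's test of the difference was found for the following named genes, as log2 differences of the 2 changes. It was higher in mural cells for *Bves* (5.00), *Cdc42ep3* (3.72), *Mfap4* (2.67), *Epha3* (2.67), *Prnp* (1.77), *Itga8* (5.13), *Gja4* (5.30), *Vtn* (5.73) and *Tbx3* (4.52). Of these, *Itga8* (-4.76), *Vtn* (-0.341) and *Tbx3* (-3.05) turned direction in the v1 libraries alone, and *Itga8* (-5.03) and *Tbx3* (-4.83) also without v2 E17.5. *Mab21l2* (11.72), *Pln* (12.26) and *Foxf1* (10.37) had 0 UMIs in E12.5 mural cells, so these fitted values depend on the prior count and give no size. It was lower in mural cells for *Cd74* (-7.27, but 2.19 in the v1 libraries alone), *Tnni1* (-5.98), *Bst2* (-4.49), *Cd44* (-4.16), *Stmn2* (-3.81), *Lsr* (-3.71), *Tmem37* (-3.41), *Cmbl* (-3.38), *Lama4* (-2.79) and *Ptger3* (-2.69). As *Tnni1* was at 0.00 (v1) and 0.407 CPM (v2) in E17.5 mural cells, its fitted value gives no firm size. The comparison class also changed with stage. In the CD140a-negative libraries 511 of 1638 comparison cells lacked *Upk3b* and *Epcam* at E12.5 and 186 of 1912 at E17.5. With comparison cells lacking both, 11 of the 23 genes named for this term lost the call. The study lists *Bst2* among genes of E17.5 mesothelium. The part of the comparison class in the listed differences was not tested.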

How the results depend on the processing

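The number of genes higher in mural than in other mesenchymal cells (331) became 172 with v1 libraries alone, 163 without cells carrying markers of another type, 219 with counts split so that selection and test used different UMIs, 174 with comparison cells lacking *Upk3b* and *Epcam*, and 275 to 350 with 1 library left out. The number lower (536) became 154, 173, 320, 142 and 332 to 615 (332 without v2 E17.5), and 1276 with no filter. Without the library block that pairs the classes, the counts were 176 and 144. Chosen after seeing the data, leaving out the CD140a-sorted libraries gave 195 and 186, and doing so with the restricted comparison cells 205 and 141.

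For stage, the number higher at E17.5 (245) became 455 with no filter, 157 and 148 in the v1 and v2 libraries alone, 151 with the thresholds raised to 6 UMIs, 84 without the kit term, 102 with split counts, and 31 to 333 with 1 library left out (60 without v1 E12.5, 149 without v1 E17.5, 31 without v2 E12.5, 45 without v2 E17.5). The number lower (55) became 135, 27 (v1 alone), 30, 9, 24 and 34 without cells carrying other markers, and 1 to 87 with 1 library left out (11 without v1 E12.5, 27 without v1 E14.5 batch 2, 34 without v1 E17.5, 5 without v2 E12.5, 87 without v2 E14.5, 1 without v2 E17.5). The number of stage-by-class differences (45) became 194 with no filter, 267 in the v2 libraries alone, 92 with the raised thresholds, 20 to 441 with 1 library left out, and 104 with the restricted comparison cells (chosen after seeing the data). The median share of mural cells (0.977%) was 3.33% of mural and comparison cells together. The causes were not tested.

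Against other mesenchymal cells, *S1pr3* reversed to -0.00635, *Eng* to -0.0395, *Nkx2-3* to -0.113 and *Cav1* to 1.1 in the ungated libraries with restricted comparison cells, *Eng* to -0.0205 and *Cav1* to 0.495 with restricted cells alone, and *Eng* to -0.0387 and *Nkx2-3* to -0.0595 in the v1 libraries alone. The stage-by-class value reversed in the v1 libraries alone for *Cd74* (2.19), *Itga8* (-4.76), *Vtn* (-0.341) and *Tbx3* (-3.05), and without v2 E17.5 for *Itga8* and *Tbx3* (ranges with 1 library left out -5.03 to 5.73 and -4.83 to 5.88). Of the other values over the named genes, 1959 of 105 genes (class), 974 of 70 (stage) and 337 of 23 (stage by class) kept direction and call, and 246, 285 and 94 lost the call. These totals include runs asking for at least 25 cells per class, which repeated the main runs. For stage and stage by class they also count the run without the Fev-Cre library 2 times. A planned comparison of mural cells with *Myh11* alone and with pericyte genes alone was not run, since 6 cells carried *Myh11* alone. Depth limited detection of low genes, and the smaller classes (31 and 37 cells) gave the least precise levels.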
